A study of Mus musculus with 8 samples.

Results

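The 7 genes described here encode the receptors and the GLI transcription factors of the Hedgehog pathway. They were taken by symbol from a table of 24067 genes: Ptch1, Smo, Gli1, Gli2, Gli3, Sufu and Hhip. RNA was sequenced from primary articular chondrocytes, the cells of joint cartilage, which had been taken from the knee ends of the femur and tibia of ICR mice at 5 days of age. One group received a mimic of the microRNA miR-204 (4 libraries) and the other a control small RNA, miR-Ctrl (4 libraries). Both were given at 50 nM for 24 h, with harvest 24 h later, and both were kept at 3% oxygen with 10% serum. Levels are given as FPKM, the number of fragments scaled to the transcript's length and to the library's depth. The libraries carry the numbers 1 to 4 in each group. The labels do not state whether these came from different cultures or mice, so a p-value here reflects the spread between these libraries and no more.

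Hedgehog ligands act by binding the receptor PTCH1, which otherwise holds the membrane protein SMO inactive. Active SMO gathers in the primary cilium, releases GLI proteins from their inhibitor SUFU and reduces the cutting of GLI3 and GLI2 into repressors. GLI1, PTCH1 and HHIP are made from genes that the pathway itself induces, so their transcripts are widely used as a reading of its activity. In the growth plate, chondrocytes about to enlarge secrete Indian hedgehog, which acts on nearby cells and, through parathyroid hormone-related protein, delays the enlargement of others.

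The transfected mimic stands for the mouse microRNA miR-204-5p, which RefSeq places at chr19:22750610-22750631 on the plus strand of GRCm38.p6. MicroRNAs pair with transcripts mainly through the seed, bases 2 to 8, which is in capitals here to show which letters the searched matches mirror.
miR-204-5p: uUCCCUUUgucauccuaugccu
For each gene, matches to the seed were looked for in its longest 3′ UTR in GENCODE M21 (GRCm38). The searched words were the 8mer AAAGGGAA, the 7mer-m8 AAAGGGA, the 7mer-A1 AAGGGAA and the 6mer AAGGGA, on the transcript strand only, and each match was counted once, as the longest word it held. Gli2 and Hhip each had 1 match of 7 bases, and Ptch1, Smo and Sufu each had 1 match of 6 bases. The 165 bases of the Gli1 3′ UTR and the 3245 bases of the Gli3 3′ UTR held none of these words. The 5 matches are shown with their neighbouring bases, 5′ to 3′ along the transcript and with the searched word in capitals. The capitals mirror bases of the seed, except the last A of Hhip. That A belongs to the 7mer-A1 word and lies opposite base 1, outside the seed.
Gli2: acctgggaggaAAAGGGAttactgtttccc
Hhip: ggaagcctaggAAGGGAAgggtttacatgt
Ptch1: ataaatgacagcAAGGGAgagaagagagta
Smo: accctctgacttAAGGGAccaccttgggaa
Sufu: gattctgaaaggAAGGGActtcgactttct
All 5 lay in the last exon. The capitals are at chr1:118835303-118835309 (minus strand, exon 14) for Gli2 and at chr8:79968146-79968152 (minus strand, exon 13) for Hhip. They are at chr13:63508521-63508526 (minus strand, exon 23) for Ptch1, at chr6:29761127-29761132 (plus strand, exon 12) for Smo and at chr19:46488222-46488227 (plus strand, exon 12) for Sufu. A match of 7 or 8 bases was found in 24.0% of the 11191 tested genes with an annotated 3′ UTR, and 63.2% of them had no match at all. These shares take no account of length. The median 3′ UTR of those genes was 1189 bases, against 6480 for Hhip, 3205 for Ptch1, 2860 for Sufu, 1653 for Gli2 and 1080 for Smo. A match describes letters in the annotation and does not show that the site is used. Sufu has other annotated transcripts with different ends, and 1 of them, with a 3′ UTR of 1200 bases, holds 3 matches of 8 bases. That transcript is not among the 2 that the deposited table lists for Sufu.

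The differences between miR-204 and miR-Ctrl libraries were small in the 6 of these genes that reached the minimum level for testing, and none passed the test over all genes with or without the replicate number as a block. Within equal numbers, Smo was slightly lower with miR-204 in all 4 pairs and Gli3 slightly higher in all 4. Such a pattern was found in 7.44% of all tested genes for lower and in 33.9% for higher. Of the 6, 0 passed an adjusted p of 0.05 in the comparison of the groups by limma, a linear model fitted to all genes, and 0 had an unadjusted p under 0.05. Of all 11612 tested genes, 0.207% passed and 8.59% had an unadjusted p under 0.05. Libraries of equal number resembled each other across the transcriptome, so the same comparison was made within equal numbers, by adding the number as a block. Then 15.2% of all tested genes passed, and again 0 of the 6. Smo alone passed in 1 further setting, which is given with its values. The unadjusted p with the block was under 0.05 for 3 of them, Ptch1, Smo and Gli3, and for 35.6% of all tested genes. Groups did not overlap in 5.9% of tested genes and in 0 of the 6. In bulk RNA, fewer cells of a type and less RNA per cell cannot be told apart.

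Differences between the replicate numbers were larger than those between partners for Gli1, Hhip, Ptch1 and Gli2. All 6 tested genes differed between the 4 numbers by limma's F test in the same model with the block, a test added after the data were seen, but so did 51.5% of all tested genes. Without both replicate 2 libraries, 4 of the 6 passed (Gli1, Ptch1, Gli2 and Gli3), against 37.0% of all tested genes.

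**Figure D1:**
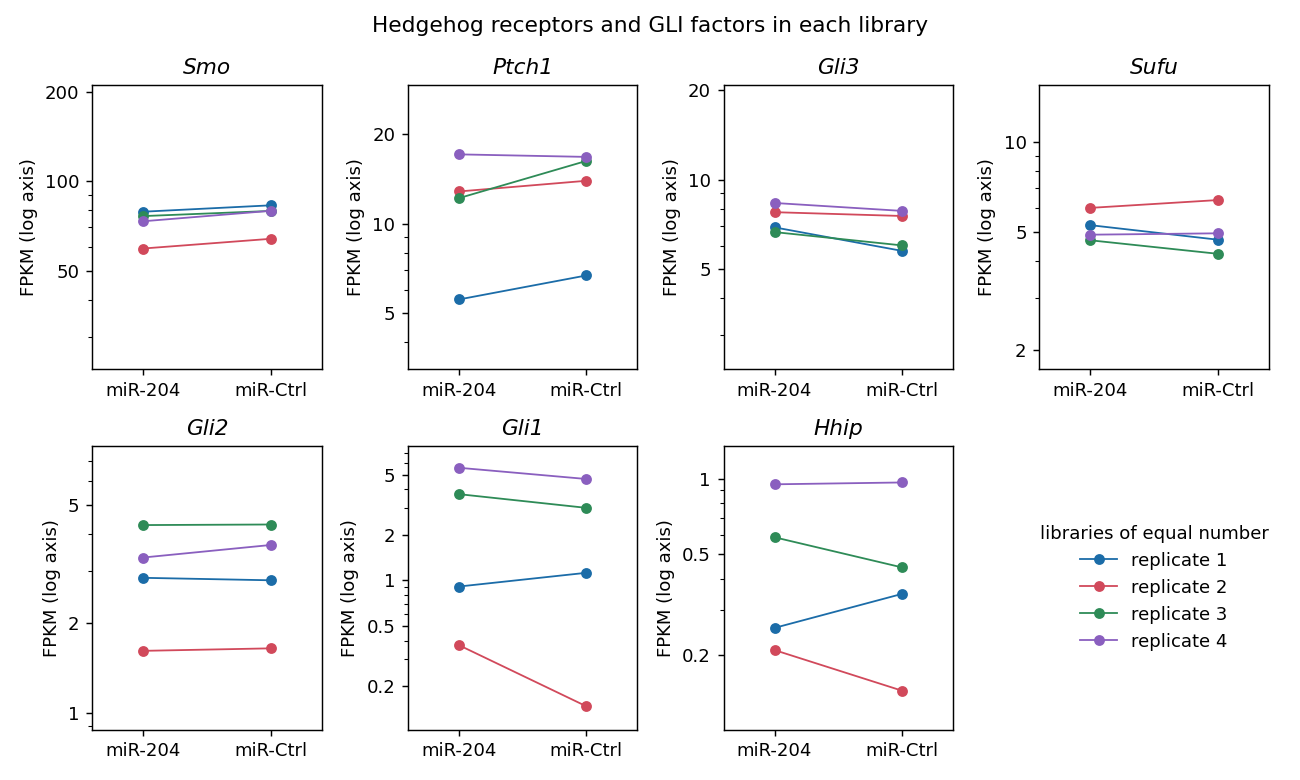
FPKM of the 7 genes on log axes, with miR-204 libraries left of miR-Ctrl libraries and lines joining libraries of equal number. The lines are nearly level for most genes and lie far apart in Gli1, Hhip and Ptch1, where replicates differ more than the partners within a number.

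Ptch1 (gene ID 19206, chr13:63508328-63573598, minus strand) encodes the receptor that binds Hedgehog ligands. It was at 5.56, 12.8, 12.2 and 17.1 FPKM in miR-204 libraries 1 to 4, against 6.70, 13.9, 16.2 and 16.8 FPKM in miR-Ctrl libraries 1 to 4. Both replicate 1 libraries were the lowest, and the groups overlapped. The means were 11.9 ± 4.77 FPKM with miR-204 and 13.4 ± 4.64 FPKM with miR-Ctrl (SD, n = 4 each). Within equal numbers the level with miR-204 was between 0.750 and 1.02 times that with miR-Ctrl, and it was higher in 1 of 4 pairs. The log2 fold change, on the scale of log2(FPKM + 1), was −0.18 with a standard error of 0.36 without the block and 0.069 with it. The adjusted p was 0.944 without the block and 0.124 with it. The 95% interval with the block covered a level of 0.789 to 0.993 times that of miR-Ctrl.

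Smo (319757, chr6:29735503-29761365, plus strand) encodes the membrane protein that passes the signal on once PTCH1 releases it. Its level was 79.1, 59.5, 76.4 and 73.4 FPKM in miR-204 libraries 1 to 4, against 83.1, 64.1, 79.5 and 79.6 FPKM in miR-Ctrl libraries 1 to 4. Both replicate 2 libraries were the lowest, and within every number the miR-204 library lay slightly below its miR-Ctrl partner. Of all tested genes, 7.44% were lower with miR-204 in all 4 pairs, and 33.9% were higher in all 4. The means were 72.1 ± 8.73 FPKM with miR-204 and 76.6 ± 8.48 FPKM with miR-Ctrl. The log2 fold change was −0.087, and the adjusted p was 0.880 without the block and 0.114 with it (95% interval of the ratio with the block, 0.891 to 0.994). Smo passed in 1 further setting, with the block and with each library centred on its median gene, where its log2 fold change was −0.15 and its adjusted p 0.0351. In that setting 9.31% of all tested genes passed, and 1 of the 6, Smo. Leaving out both libraries of number 1, 3 or 4 ended that call (adjusted p 0.134, 0.119 and 0.194), and leaving out number 2 did not (0.0222).

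Hhip (15245, chr8:79965851-80058006, minus strand) encodes a membrane-bound protein that captures Hedgehog ligands and so limits their action. It was at 0.255, 0.208, 0.585 and 0.950 FPKM in miR-204 libraries 1 to 4, against 0.349, 0.144, 0.444 and 0.966 FPKM in miR-Ctrl libraries 1 to 4. Replicate 4 was the highest and replicate 2 the lowest in both groups. The mean was 0.500 ± 0.344 FPKM with miR-204 and 0.476 ± 0.350 FPKM with miR-Ctrl, which is under the minimum of 1 FPKM set for the main test. In limma fits with no minimum, its log2 fold change was 0.025, with an adjusted p of 0.780 with the block and 1 without it. The miR-204 library was higher in 2 of 4 pairs, at 0.733 to 1.45 times its partner. These levels rested on an estimated 38 to 316 fragments per library.

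Sufu (24069, chr19:46396896-46488804, plus strand) encodes the protein that holds GLI factors in the cytoplasm. It was at 5.27, 6.02, 4.69 and 4.90 FPKM in miR-204 libraries 1 to 4, against 4.71, 6.40, 4.22 and 4.95 FPKM in miR-Ctrl libraries 1 to 4. Both replicate 2 libraries were the highest, the opposite of Smo, Gli1, Gli2 and Hhip. The means were 5.22 ± 0.588 FPKM with miR-204 and 5.07 ± 0.936 FPKM with miR-Ctrl. The miR-204 library was higher in 2 of 4 pairs. The log2 fold change was 0.042, with an adjusted p of 0.963 without the block and 0.590 with it. Its sign turned, to −0.022, once libraries were centred on their median gene.

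**Figure D2:**
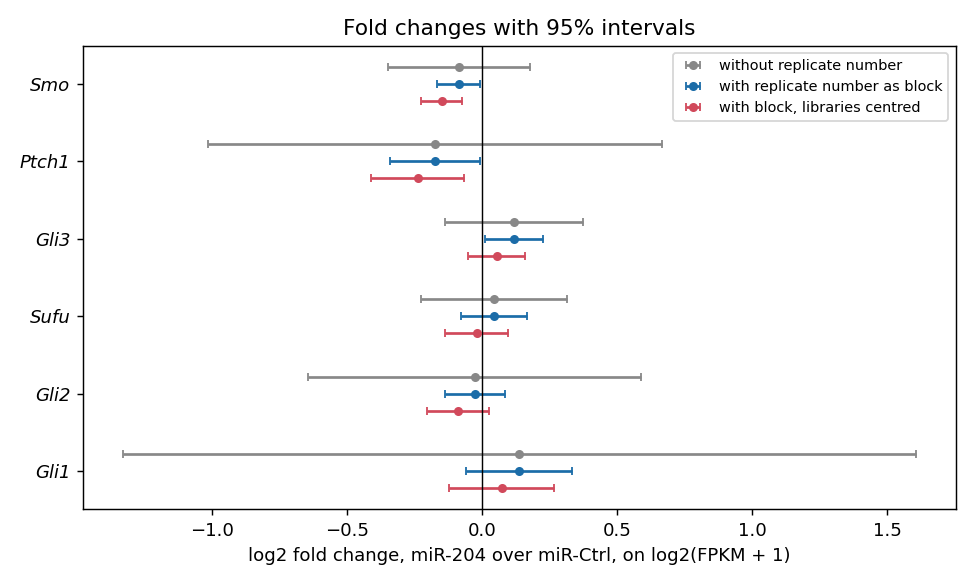
Log2 fold changes, miR-204 over miR-Ctrl on log2(FPKM + 1), of the 6 tested genes, with points for the estimate and bars for its 95% interval. Grey is the comparison without the replicate number, blue with the number as a block and red with the block and centred libraries. The grey bar of Gli1 runs from −1.33 to 1.61, and the blue bars are much shorter for every gene.

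Gli3 (14634, chr13:15463235-15730026, plus strand) encodes the GLI factor that is mainly known as the repressor of the pathway. It was at 6.92, 7.78, 6.67 and 8.36 FPKM in miR-204 libraries 1 to 4, against 5.77, 7.56, 6.02 and 7.86 FPKM in miR-Ctrl libraries 1 to 4. Within every number the miR-204 library was the higher one, by 1.03 to 1.20 times, while the groups overlapped. The same held within every number for 33.9% of all tested genes. The means were 7.43 ± 0.779 FPKM with miR-204 and 6.80 ± 1.06 FPKM with miR-Ctrl. The log2 fold change was 0.12, with an adjusted p of 0.821 without the block and 0.113 with it. The 95% interval of the ratio with the block was 1.01 to 1.17. It was 0.965 to 1.12 with centred libraries.

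Gli2 (14633, chr1:118834132-119053619, minus strand) encodes the main activator of the GLI family. It was at 2.84, 1.62, 4.27 and 3.33 FPKM in miR-204 libraries 1 to 4, against 2.79, 1.65, 4.29 and 3.66 FPKM in miR-Ctrl libraries 1 to 4. Partners of equal number were close, at 0.908 to 1.02 times each other, and both replicate 2 libraries were the lowest. The means were 3.01 ± 1.11 FPKM with miR-204 and 3.10 ± 1.15 FPKM with miR-Ctrl. Gli2 holds the 7-base seed match printed above. Its log2 fold change was −0.028, with an adjusted p of 0.993 without the block and 0.709 with it. The 95% interval of the ratio with the block ran from 0.908 to 1.06.

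Gli1 (14632, chr10:127329882-127341974, minus strand) encodes the GLI factor that is itself a target of the pathway, and it varied most. Its level was 0.911, 0.373, 3.73 and 5.57 FPKM in miR-204 libraries 1 to 4, against 1.12, 0.147, 3.02 and 4.69 FPKM in miR-Ctrl libraries 1 to 4. The libraries thus fell in the order 2, 1, 3 and 4 in both groups, and the highest was 37.9 times the lowest. The means were 2.64 ± 2.44 FPKM with miR-204 and 2.25 ± 2.02 FPKM with miR-Ctrl. The log2 fold change was 0.14, with a standard error of 0.64 without the block and 0.082 with it, and an adjusted p of 0.982 without the block and 0.280 with it.

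In 3 of 4 pairs Gli1 was higher in the miR-204 library. The widest ratio was 2.54, in replicate 2, where Gli1 rested on an estimated 46 fragments with miR-204 and 17 with miR-Ctrl. Counting error alone gave these levels 95% Poisson intervals of 0.275 to 0.500 FPKM with miR-204 and 0.0840 to 0.231 FPKM with miR-Ctrl. The other pairs rested on 130 to 822 fragments with miR-204 and 173 to 686 with miR-Ctrl, and their ratios were 0.811, 1.23 and 1.19 in replicates 1, 3 and 4. The fold change on log2(FPKM + 1) understates such ratios at low levels. With a pseudocount of 0.1 and no minimum level, the log2 fold change of Gli1 with the block was 0.30 (adjusted p 0.425).

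The mean of the pair of equal number shows how far the replicates stood apart. For Gli1 it ran from 0.260 FPKM in replicate 2 to 5.13 FPKM in replicate 4, a 19.7-fold span, or 5.04-fold among replicates 1, 3 and 4. Hhip spanned 5.44-fold, or 3.17-fold without replicate 2, and Ptch1 2.76-fold with or without it. In ratios of FPKM, the 3 genes that the pathway itself induces thus had the widest spans of the 7, though that of Ptch1 was close to that of Gli2. The order was different on log2(FPKM + 1). There the SD over the 8 libraries was 0.97 for Gli1, 0.56 for Ptch1, 0.40 for Gli2 and 0.30 for Hhip. Gli2 spanned 2.63-fold, or 1.52-fold without replicate 2. Sufu spanned 1.39-fold and Smo 1.31-fold, but without replicate 2 only 1.12-fold and 1.06-fold, which is about the size of the differences between partners. Gli3 spanned 1.28-fold with or without replicate 2. By limma's F test, the adjusted p for a difference between the 4 numbers was 1.69e-04 for Gli1, 4.35e-04 for Gli2, 5.83e-04 for Ptch1, 0.00348 for Smo, 0.0126 for Gli3 and 0.0176 for Sufu. Without replicate 2 it was 0.204 for Sufu and 0.238 for Smo. The genes did not share 1 order: Ptch1 was lowest in replicate 1 and well expressed in replicate 2, where Gli1, Gli2 and Hhip were lowest.

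Because FPKM is scaled to transcript length, the 7 levels can be set beside each other. Over all 8 libraries, mean FPKM was 74.4 for Smo, 12.7 for Ptch1, 7.12 for Gli3, 5.15 for Sufu, 3.06 for Gli2, 2.45 for Gli1 and 0.488 for Hhip. Among neighbours in this order, only the ranges of Smo and Ptch1 were apart. Every other pair of neighbours in this order overlapped, although Gli3 exceeded Sufu, and Gli1 exceeded Hhip, in 8 of 8 libraries. Gli2 exceeded Gli1 in 6 of 8. Smo stood at 14.2, 4.64, 6.27 and 4.30 times Ptch1 in miR-204 libraries 1 to 4, against 12.4, 4.60, 4.90 and 4.75 times in miR-Ctrl libraries 1 to 4. The ratio was high only in replicate 1, where Ptch1 was low.

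The makeup of the GLI transcripts followed the replicate number too. Gli1 made up 8.54%, 3.82%, 25.4% and 32.3% of the summed FPKM of Gli1, Gli2 and Gli3 in miR-204 libraries 1 to 4, against 11.6%, 1.57%, 22.7% and 28.9% in miR-Ctrl libraries 1 to 4. Gli3 made up 64.8%, 79.7%, 45.5% and 48.5% in miR-204 libraries, against 59.6%, 80.8%, 45.1% and 48.5% in miR-Ctrl libraries. Gli3 was the largest of the 3 in every library, and its share was highest in replicate 2, where that of Gli1 was lowest. The summed level was 9.77 to 17.3 FPKM with miR-204 and 9.35 to 16.2 FPKM with miR-Ctrl.

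**Figure D3:**
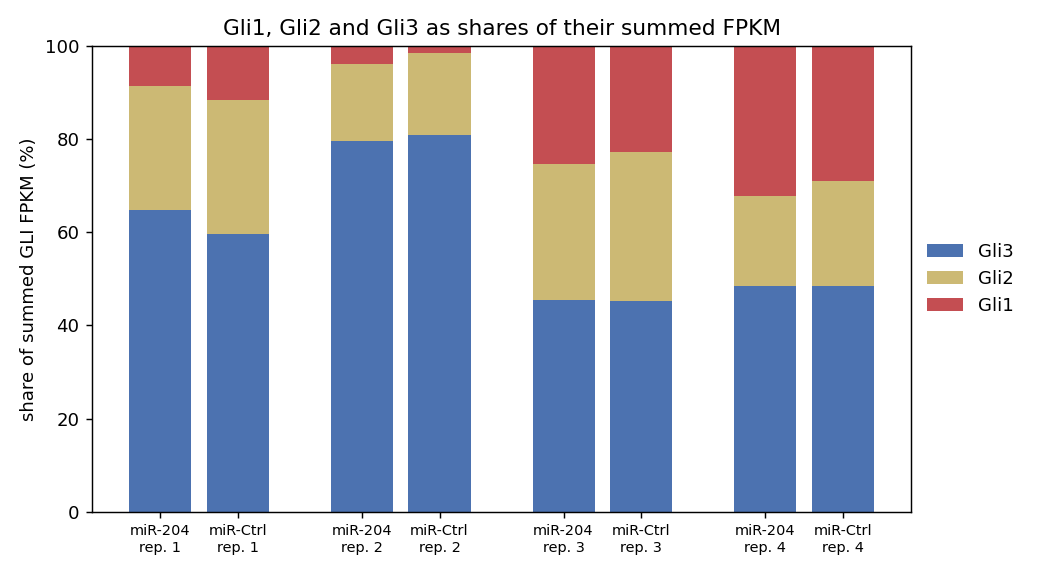
Shares of Gli3 (blue), Gli2 (yellow) and Gli1 (red) in their summed FPKM, in percent, 1 bar per library, with the miR-204 library left of the miR-Ctrl library of equal number. The red share is 1.57% to 11.6% in replicates 1 and 2 and 22.7% to 32.3% in replicates 3 and 4, and neighbouring bars of a pair look alike.

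Other measures moved with the replicate number or with the group, and their part in the levels above was not tested. The summed FPKM of 8 chondrocyte markers was 22123, 10460, 27012 and 21268 in miR-204 libraries 1 to 4, against 25224, 10697, 34650 and 25615 in miR-Ctrl libraries 1 to 4. Col2a1, the main cartilage collagen and the largest part of this sum, was at 7836 FPKM or more in every library. Of all 11612 tested genes, 15.2% passed by limma with the block, 329 as lower and 1436 as higher. Of the 8 markers, 2 were lower and 0 higher. The 2 were Hapln1 (log2 fold change −1.04, adjusted p 0.00136) and Comp (−0.17, adjusted p 0.0401). Matn3, higher in all 4 pairs, did not pass (0.31, adjusted p 0.0768). Mmp13, a collagen-cutting protease, was at 908 FPKM in miR-204 replicate 2 and 1628 FPKM in miR-Ctrl replicate 2. It was at 5.14 to 51.6 FPKM in the other miR-204 libraries and 3.66 to 54.8 FPKM in the other miR-Ctrl libraries. The summed level of 7 fibroblast or perichondrium markers was 1943 to 4290 FPKM with miR-204 and 1859 to 3967 FPKM with miR-Ctrl, lowest in replicate 3 of both groups. Of the 7, Thy1 alone passed by limma with the block, as higher (0.42, adjusted p 0.0330). The sum of 4 osteoblast markers was 23.6 FPKM in miR-204 replicate 2 and 22.8 FPKM in miR-Ctrl replicate 2. It was 7.05 to 11.7 FPKM in the other miR-204 libraries and 5.22 to 7.74 FPKM in the other miR-Ctrl libraries. None of its 3 tested markers passed with the block. Among 3 tested markers of the superficial zone or synovium, Cd44 alone passed by limma with the block, as higher (0.51, adjusted p 0.0185). The sum of 6 smooth muscle or pericyte markers moved with the group, at 242 to 344 FPKM with miR-204 and 141 to 182 FPKM with miR-Ctrl. All 3 tested markers of that list were higher by limma with the block: Acta2 (log2 fold change 1.01, adjusted p 0.00320, and 0.0242 without the block), Tagln (0.55, adjusted p 0.00489) and Mcam (0.82, adjusted p 0.00238). Myh11 and Rgs5 were at or below 0.441 FPKM in every library. The sum of 5 macrophage markers was 8.54 to 16.0 FPKM with miR-204 and 3.20 to 12.3 FPKM with miR-Ctrl. Of its 2 tested markers Cd68 was higher with the block (1.01, adjusted p 0.00997) and Lyz2, higher in all 4 pairs, did not pass (0.45, adjusted p 0.0561). The other macrophage markers were under the minimum for testing and did not share this rise. Emr1, at no more than 0.188 FPKM, was lower with miR-204 in all 4 pairs. Csf1r had a mean of 0.112 FPKM with miR-204 and 0.111 FPKM with miR-Ctrl. Ptprc was at no more than 0.0309 FPKM, and the sum of 4 endothelial markers at most 0.419 FPKM. The estimated depth, relative to miR-Ctrl replicate 1, was 0.797 in miR-204 replicate 2 and 0.766 in miR-Ctrl replicate 2, and 0.924 to 0.962 in the other 5 libraries.

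The ligands themselves were scarce. Shh was listed at 0 in all 8 libraries. Ihh, the Hedgehog of growth plate cartilage, was at 0.164, 0.178, 1.23 and 0.624 FPKM in miR-204 libraries 1 to 4, against 0.317, 0.0706, 1.57 and 0.912 FPKM in miR-Ctrl libraries 1 to 4. Like Gli1, Ihh was lower in replicates 1 and 2 than in replicates 3 and 4, but it was highest in replicate 3. Dhh was at 0.235 to 0.470 FPKM with miR-204 and 0.231 to 0.463 FPKM with miR-Ctrl. These ligand genes were under the minimum for testing.

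The tested genes whose pattern over the 8 libraries was most like that of Gli1 were found by the root mean square distance between gene-centred log2(FPKM + 1) values. They were Col10a1, the collagen of hypertrophic chondrocytes, at a distance of 0.29, the fructose transporter gene Slc2a5 at 0.34 and the mesothelin gene Msln at 0.37, where the SD of Gli1 itself was 0.97. Col10a1 was at 20.8, 7.91, 39.8 and 56.1 FPKM in miR-204 libraries 1 to 4, against 17.3, 9.70, 52.7 and 46.6 FPKM in miR-Ctrl libraries 1 to 4. It was thus lowest in replicate 2 and highest in replicates 3 and 4, as Gli1 was. Other markers of hypertrophic chondrocytes did not share 1 order. Mmp13 was highest in replicate 2 of both groups, at 908 FPKM with miR-204 and 1628 FPKM with miR-Ctrl. The receptor gene Pth1r was lowest there, at 8.97 FPKM with miR-204 and 10.0 FPKM with miR-Ctrl. Nearest to Ptch1, whose SD was 0.56, were Lipo1 at 0.24, Uchl1 at 0.29 and Fbp2 at 0.29. A likeness over 8 libraries that share 4 numbers says nothing of shared control.

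**Figure D4:**
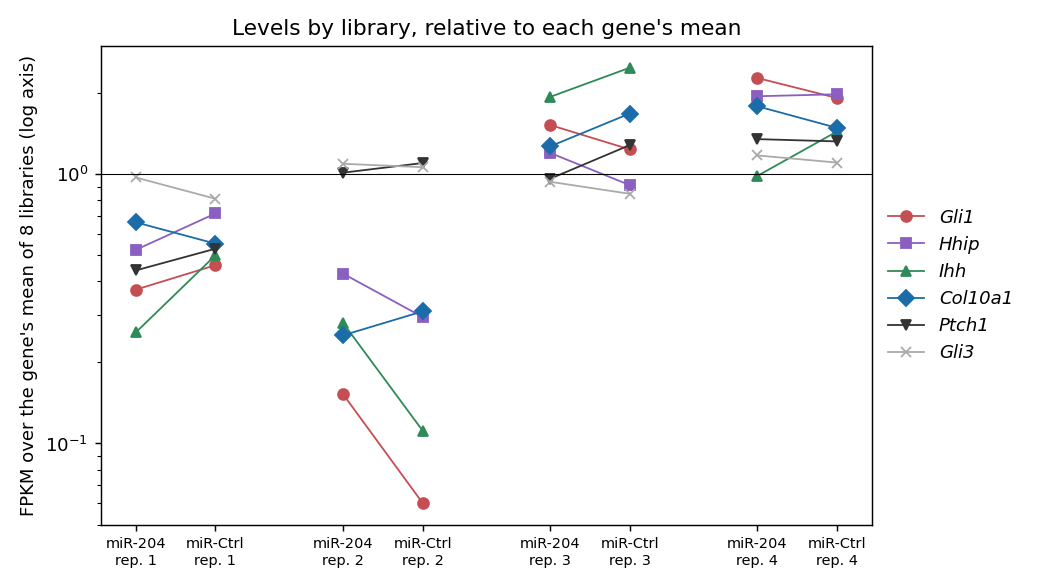
FPKM of 6 genes in each library divided by the gene's own mean over the 8 libraries, on a log axis, with the miR-204 library left of the miR-Ctrl library of equal number. Gli1, Hhip, Ihh and Col10a1 lie low in replicate 2, Ptch1 is low only in replicate 1, and Gli3 stays near 1 throughout.

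The rest of the pathway was read from lists of genes by role, so that the 7 genes can be seen beside it. Without the block 0 genes passed by limma in any of the 7 lists. An unadjusted p under 0.05, which 8.59% of all tested genes had, was found for 2 of 12 ciliary regulators, 1 of 13 target genes, 3 of 39 transport genes and 2 of 8 genes of the growth plate loop. With the block 1436 of all 11612 tested genes were higher and 329 lower, at a median log2 fold change of 0.064. Calls in the lists are to be read against the count of the same direction, since the 15.2% pools both. Among 5 tested genes for making and releasing the ligands, 0 passed by limma with the block (2 at an unadjusted p under 0.05, a level that 35.6% of all tested genes reached with the block), and the median log2 fold change was 0.13. The best expressed were Disp1, which releases the lipid-bearing ligand (log2 fold change 0.13, adjusted p 0.0505 with the block), and Hhat, which attaches its palmitate (0.24, adjusted p 0.120).

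Among 4 tested co-receptors and further receptors, 0 were higher and 1 was lower with the block, at a median log2 fold change of 0.037. Gpc3, a cell-surface proteoglycan known to bind Hedgehog ligands and restrain signalling, was at 23.4, 19.9, 28.2 and 31.6 FPKM in miR-204 libraries 1 to 4, against 28.1, 25.7, 35.7 and 36.4 FPKM in miR-Ctrl libraries 1 to 4. It was lower in all 4 pairs (log2 fold change −0.28 ± 0.040, SE). Its adjusted p by limma was 0.0118 with the block and 0.682 without it. The co-receptor genes Boc, at 52.3 ± 15.9 FPKM with miR-204 and 51.2 ± 17.1 FPKM with miR-Ctrl, and Gas1, at 46.4 ± 16.8 FPKM with miR-204 and 45.9 ± 16.7 FPKM with miR-Ctrl, did not pass.

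Inside the cell, 0 of 12 tested ciliary regulators of SMO, SUFU and GLI passed by limma with the block (6 at an unadjusted p under 0.05, median log2 fold change 0.099). Of 16 tested kinases and ligase parts that act on GLI proteins, 0 passed by limma with the block (4 at an unadjusted p under 0.05, median 0.071). The best expressed of these were Tulp3, which brings receptors into the cilium (0.10), the ciliary phosphatase gene Inpp5e (0.14), the casein kinase gene Csnk1a1 (0.025) and Prkar1a, a regulatory subunit of protein kinase A (0.12). Of 39 tested genes for intraflagellar transport and the cilium, 3 were higher and 1 was lower with the block, at a median of 0.071. The highest of these calls was Wdr35, a part of the retrograde transport complex, at 23.2 ± 1.91 FPKM with miR-204 and 18.1 ± 1.91 FPKM with miR-Ctrl (log2 fold change 0.34, adjusted p 0.00591). Bbs2 (0.17, adjusted p 0.0375) and Ift80 (0.19, adjusted p 0.0464) were the other 2, and Bbs4 was the lower one (−0.18, adjusted p 0.0404). BBS2 and BBS4 are parts of the same ciliary cargo complex and passed in opposite directions. With the block and centred libraries Bbs2 and Ift80 no longer passed (adjusted p 0.145 and 0.178), while Wdr35 and Bbs4 did (0.0102 and 0.0308). The best expressed, Ift20 (0.11) and Ift43 (0.13), did not pass.

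Of 22 genes widely given as Hedgehog targets, the members aside, 13 were tested. With the block 3 were higher and 1 was lower, at a median log2 fold change of 0.058. Ccne1, which encodes cyclin E1, was at 11.3, 7.55, 6.56 and 8.79 FPKM in miR-204 libraries 1 to 4, against 8.20, 4.75, 3.95 and 5.62 FPKM in miR-Ctrl libraries 1 to 4. Its log2 fold change was 0.54 ± 0.045 (SE), with an adjusted p of 0.00367 by limma with the block and 0.531 without it. Ccnd1, the cyclin D1 gene (0.27, adjusted p 0.0191), and Foxm1, a transcription factor gene of the cell cycle (0.35, adjusted p 0.0212), were also higher with the block. These 3 genes act in the division cycle and are driven by many other signals. Foxd1, a forkhead factor gene, was lower (−0.16, adjusted p 0.0368). The best expressed, the growth factor gene Igf2 (−0.14) and the cyclin gene Ccnd2 (0.10), did not pass.

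In the growth plate loop of Indian hedgehog and parathyroid hormone-related protein, 8 of 10 genes were tested, and 0 were higher and 3 lower with the block, at a median of −0.080. Alpl, the tissue alkaline phosphatase of mineralizing cells, was at 3.56, 6.63, 3.68 and 4.48 FPKM in miR-204 libraries 1 to 4, against 6.99, 9.94, 7.12 and 8.11 FPKM in miR-Ctrl libraries 1 to 4. No miR-204 library reached the lowest miR-Ctrl library. The log2 fold change was −0.71 ± 0.058 (SE), with an adjusted p of 0.00350 by limma with the block and 0.247 without it. Runx2, a transcription factor gene of hypertrophy and bone (−0.29, adjusted p 0.0152), and Pth1r, the receptor gene for parathyroid hormone-related protein (−0.31, adjusted p 0.0157), were lower too. Of the best expressed, Col10a1 (−0.037) did not pass. Sox9 (−0.12), lower in all 4 pairs, had an adjusted p of 0.0599 with the block and passed with the block and centred libraries (0.0217).

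Of the 12 list genes that passed with the block, 2 (Alpl and Ccne1) still passed when either both libraries of number 1, of number 2, of number 3 or of number 4 were left out. Wdr35 passed in 3 of these 4 fits and missed without number 4 (adjusted p 0.0548). Each of the others passed at most once, without number 2, and Ift80 never. For the adjusted p without numbers 1, 3 and 4, Gpc3 had 0.0647, 0.0551 and 0.0666, Runx2 had 0.0636, 0.0669 and 0.0924, and Ccnd1 had 0.0840, 0.0700 and 0.113.

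**Figure D5:**
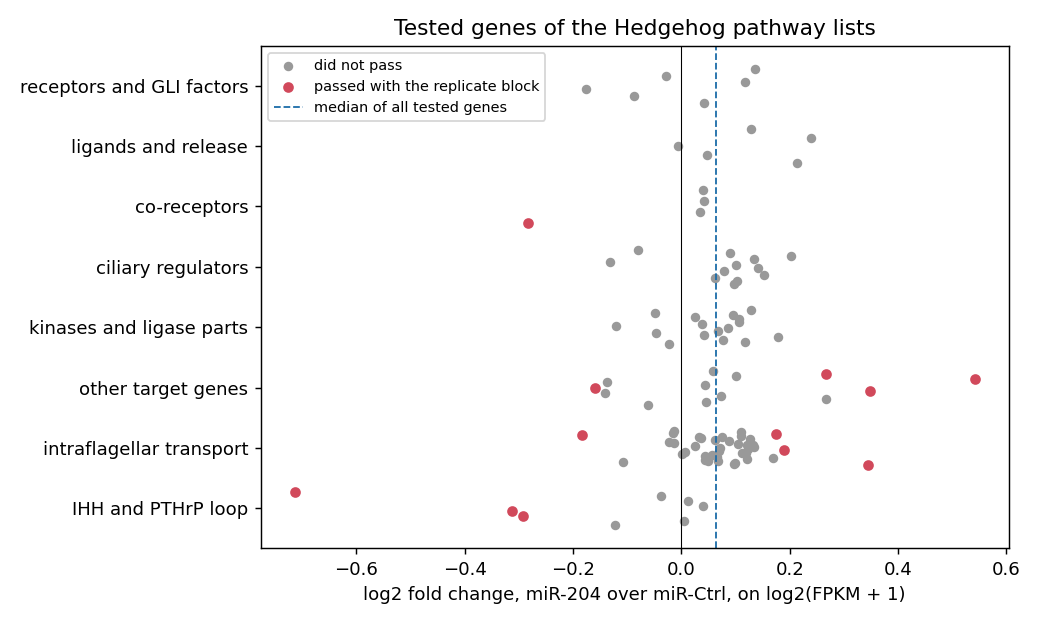
Log2 fold change, miR-204 over miR-Ctrl on log2(FPKM + 1), of every tested gene in the lists by role, 1 dot per gene. Red dots passed with the replicate block, grey dots did not, and the dashed line is the median of all tested genes, 0.064. The 6 tested receptor and GLI genes in the top row are all grey, between −0.18 and 0.14.

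Promoter windows were searched for the GLI motif because 3 of the 7 genes are known targets of GLI factors. RefSeq windows of GRCm38.p6, each of 300 bases placed by the RefSeq start, were used for 6 of the 7 genes. The Gli1 window was not analysed here. RefSeq and GENCODE starts can differ: the Ptch1 window, chr13:63565686-63565985, lay inside the GENCODE gene, and the Gli3 window, chr13:15463473-15463772, lay downstream of the GENCODE start, so neither covers the sequence before those starts. The motif GACCACCCA was in 0 of these 6 windows on either strand and in 0.253% of all 32851 windows. Its core ACCACCC was in the Gli2 window alone, on the reverse strand from base 46 of the window, and in 4.61% of all windows. No match says only that these letters are not in this short window.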

How the data were processed

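RNA of 4 miR-204 and 4 miR-Ctrl libraries was measured with a stranded kit for polyadenylated RNA, per the labels' protocols. The deposited table holds 1 FPKM value per gene and library. Per the submitters' processing notes, the tools were TopHat and Cufflinks 2.2.1 and the build was mm10. The version of TopHat and the annotation, counting mode and filters were not given in the sources used here. No count model was used, since FPKM values are not counts, and FPKM of 1 gene depends on the share of fragments that other genes take.

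A gene was tested if its mean over the 8 libraries was 1 FPKM or more, which left 11612 genes. The groups were compared on log2(FPKM + 1) values by limma 3.58.1 (R 4.3.3) with an intensity trend in the prior. Tests were two-sided, and p-values were adjusted by Benjamini-Hochberg over all tested genes at 0.05. Fold changes on this scale understate changes of low genes. All 8 sample columns were used. Groups and numbers came from the labels. The numbers paired the libraries: across genes, deviations from the group means had a correlation of 0.44, 0.82, 0.76 and 0.62 within numbers 1 to 4. The pairing thus comes from the data, and the fit with the block is given beside the one without it.

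Fragment numbers were estimated from the steps between low FPKM values and annotated transcript lengths. They are estimates, and intervals from them cover counting error only. FPKM summed to 416560 to 490818 per library.

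The 7 genes and all lists were chosen with earlier results of these data known. All 7 were named. From each list, up to 4 genes past the threshold with or without the block and the 2 with the highest mean were named, and for Gli1 and Ptch1 the 3 genes of most like pattern. Cul3 and Evc2, named in the closing section, and the ligand genes were picked once their values had been seen. Alternatives were other pseudocounts, filters and scalings, the block, and leaving out libraries or pairs. On simulated data of 11612 genes for miR-204 against miR-Ctrl, recovery of 1.5-fold changes was 52% without the block and 89% with it, recovery of 2-fold changes was 76% without it and 97% with it, and 0 and 7 unchanged genes were called. The simulation was built from the fit with the block, and unchanged genes were given no difference between the groups. The gain with the block was thus set in advance. The real libraries had a median log2 fold change of 0.064, so the calls of unchanged genes do not measure the error in these data. Smaller changes were not simulated.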

Additional observations from a re-analysis of the deposited data

How the results depend on the processing

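The fold changes of the 6 tested genes were recomputed in 154 alternatives in all. In 135 of these both direction and side of the threshold were kept, in 17 the direction turned and in 2 Smo passed. Smo passed at −0.15 with the replicate block and libraries centred on their median, which made 1 member lower, and at −0.15 in the same setting without number 2. Gli1 turned to −0.015 with quantile normalization. Sufu turned to −0.022 with centred libraries, with or without the block, and to −0.036 with quantile normalization. Centring lowers the fold change of every gene by the same amount. With it the median over all tested genes went from 0.064 to 0.00012, and the 0.042 of Sufu before centring lay below 0.064. The cause of the turns with quantile normalization was not tested. Sufu was also at −0.055, −0.039 and −0.00041 with block and centring without number 1, 3 or 4, and at its lowest, −0.026, with 1 library left out.

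With 1 library left out, or with a pair left out with the block (then also centred), the log2 fold change ran from −0.45 to 0.12 for Ptch1, −0.17 to 0.0012 for Smo, −0.28 to 0.51 for Gli1, −0.22 to 0.16 for Gli2, 0.015 to 0.18 for Gli3 and −0.055 to 0.14 for Sufu. The difference of Hhip ran from −0.11 to 0.17 with 1 library left out. With a pair left out and the block, not centred, all 6 kept their direction. The members called ranged from 0 to 0 higher and 0 to 1 lower.

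Over all genes, 3 were higher and 21 lower without the block. The counts were 1436 and 329 with the replicate block, 579 and 502 with block and centring, 8 and 55 with centring, 7 and 66 with quantile normalization, 1434 and 332 with a pseudocount of 0.1 and the block, and 0 and 9 by limma with no filter on mean FPKM. They were 542 and 197 with no filter and the block, and 571 and 203 with no filter, a pseudocount of 0.1 and the block. Leaving out 1 library without the block gave 0 to 4 higher and 1 to 16 lower. With the block, leaving out the pair of number 1, 2, 3 or 4 gave 89 and 83, 2781 and 522, 236 and 149, or 42 and 48, and with centring too 86 and 143, 1271 and 1027, 125 and 197, or 61 and 111.

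With the block, or the block and centring, list counts were 3 and 3 higher and 1 and 1 lower for target genes, 3 and 1 higher and 1 and 1 lower for intraflagellar transport, 1 and 1 lower for co-receptors and 3 and 4 lower for the growth plate loop, where centring added Sox9. Centring with the block also called 1 ciliary regulator (Evc2) and 1 kinase or ligase part (Cul3) lower. With a pseudocount of 0.1 and the block the counts were those of the block. With no filter and the block, at either pseudocount, 2 targets and 1 transport gene were higher, and 1 co-receptor and 3 loop genes lower. With libraries or pairs left out, the higher counts were 0 to 1 for ligand genes, 0 to 1 for co-receptors, 0 to 2 for ciliary regulators, 0 to 6 for kinases, 0 to 5 for targets and 0 to 4 for transport. The lower counts were 0 to 1 for co-receptors, 0 to 2 for ciliary regulators, 0 to 3 for kinases, 0 to 3 for targets, 0 to 1 for transport and 0 to 4 for the loop.

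Searching every annotated 3′ UTR changed the longest seed match of Sufu from 6 to 8 bases and of no other member. Depth limits Gli1 in replicate 2, where it rested on 46 estimated fragments with miR-204 and 17 with miR-Ctrl, and Hhip in the same replicate, on 57 and 38.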
